A study of Danio rerio with 7 samples.

Results

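Of the 9747 Sall4 peaks mapped in bud-stage zebrafish embryos, 429 overlapped an H3K27ac domain while overlapping neither a Cdx4 peak nor an H3K4me3 domain. These 429 intervals, called acetylated Sall4-only sites here, made up 4.40% of all Sall4 peaks and 5.77% of the 7430 Sall4 peaks without an overlapping Cdx4 peak. They were selected by these overlaps of at least 1 bp, so the presence of acetylation and the lack of overlap with Cdx4 and H3K4me3 describe the selection and are not results. Everything that follows concerns what the overlaps left free: the Sall4 score, the width and score of the acetylated domain, the position of the site within it, and the distance to other intervals. The whole data set held 38913 intervals in 4 lists.

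The lists came from chromatin immunoprecipitation and sequencing (ChIP-seq) of pooled wild-type embryos of the Tu strain, taken whole at the bud stage, when gastrulation ends. The Sall4 and Cdx4 libraries were made with an anti-Myc antibody against Myc-tagged Sall4 and Myc-tagged Cdx4, and the H3K27ac and H3K4me3 libraries with antibodies against those histone marks. Embryos were either left uninjected or given mRNA at the 1-cell stage, and the labels do not name the treatment of each library. Wild-type embryos carry no Myc-tagged factor, so the Sall4 and Cdx4 libraries must come from embryos given mRNA. For the H3K27ac and H3K4me3 libraries the treatment is not given. Each of the 4 targets had 1 library, so no value below has an error between libraries. Peaks within 1 list are not replicates, so classes of sites were described side by side without a test. The exact binomial 95% intervals in parentheses, and those of medians from the ranks of the sites, cover counting error only. No anti-Myc library of embryos without the tag was used here. The tag means that all Sall4 and Cdx4 sites here are sites of tagged protein supplied by injected mRNA. Binding of the embryo's own Sall4 and Cdx4 was not tested. The whole embryo mixes cell types, so an acetylated domain and a Sall4 peak at 1 position need not come from the same cells.

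Sall4, a member of the spalt family of transcription factors, binds DNA through zinc fingers and is known for its role in pluripotent and early embryonic cells. Cdx4 is a homeodomain factor of the caudal family that acts in the posterior embryo upstream of hox genes and is needed in zebrafish for the specification of blood progenitors. Acetylation of histone H3 at lysine 27 accompanies active enhancers and promoters, while trimethylation at lysine 4 accompanies promoters, so a domain with the first mark alone is commonly read as a candidate distal enhancer. The overlap of the factors and marks used to select the sites bears on which Sall4 sites may lie in such elements without Cdx4. The lists carry positions in zebrafish assembly Zv8, for which no genome sequence or annotation was used here, so no gene was assigned to a site and no sequence is shown.

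The best-scoring acetylated Sall4-only sites stood among the highest-scoring Sall4 peaks of the whole list. They were picked by score, so high ranks follow in part from the choice. The score is the authors' own value per peak and was used only to rank peaks within a list. The highest was chr20:22295232-22295331, with a score of 442 and rank 9 of the 9747 Sall4 peaks. It lay wholly inside a domain 399 bp wide, from 22295000 to 22295398, and a Cdx4 peak with a score of 71 lay 25 bp from its edge. The next site, chr2:30112374-30112473, had a score of 425 and rank 10. It also lay in a domain of 399 bp, and its nearest Cdx4 peak was 4059 bp away. A site at chr11:43607261-43607360, with a score of 347, was 115117 bp from the nearest Cdx4 peak, 126110 bp from any other Sall4 peak and 63261 bp from any H3K4me3 domain. This site was thus the only interval of either factor in its neighbourhood, in a domain of 299 bp.

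The other 7 of the 10 top-scoring sites had scores from 274 to 330. On chromosome 23, the site at 36314999 to 36315098 (score 330) lay 500 bp from an H3K4me3 domain. On chromosome 7, the site at 40844142 to 40844241 (score 319) shared its domain of 299 bp with another acetylated Sall4-only site only 71 bp away, whose score was 83. A similar doublet was found on chromosome 22, where the site at 37660738 to 37660837 (score 307) stood 192 bp from one with a score of 108, both touching a domain of 299 bp. The sites at chr17:33787940-33788039 (score 301) and chr10:11657758-11657857 (score 280) lay in low-scoring domains of 299 bp, with domain scores of 67 and 71. The remaining pair, chr10:17598005-17598104 (score 277) and chr7:21691621-21691720 (score 274), lay 113 and 18 bp from Cdx4 peaks with scores of 74 and 65. The chromosome 10 site of this pair overlapped its acetylated domain by only 5 bp, so its centre was outside the domain. Of the 10 sites, 3 had a Cdx4 peak within 1 kb and 8 lay in domains no wider than 500 bp.

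Across all 429 sites, Sall4 scores were intermediate between those of unmarked Sall4-only sites and those of shared sites. The median score was 93 in acetylated Sall4-only sites (quartiles 73 and 126, 95% interval of the median 88 to 99). It was 110 in the 659 acetylated shared sites, which are Sall4 peaks that overlap Cdx4 and H3K27ac but not H3K4me3 (quartiles 83 and 158.5, interval 106 to 117). It was 82 in the 6442 unmarked Sall4-only sites, which overlap neither mark (quartiles 65 and 108, interval 81 to 83). The Sall4 list was divided by score into 4 groups of equal size. The top group held 28.7% of acetylated Sall4-only sites (24.4 to 33.2%), 43.7% of acetylated shared sites (39.9 to 47.6%) and 18.3% of unmarked Sall4-only sites (17.4 to 19.3%), against 25.0% of all Sall4 peaks by construction. The share of Sall4-only peaks that were acetylated without H3K4me3 was 8.89% (123 of 1384) among the best scores, 6.0% and 5.47% in the groups below, and 3.86% (83 of 2148) among the lowest scores. Of the 48 Sall4-only peaks that overlapped both marks, 8.33% were in the top group and the median score was 75. A site's own score had little relation to the score of its acetylated domain (Spearman's rho 0.113 across the 429 sites, which share both libraries and are not replicates).

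**Figure D1:**
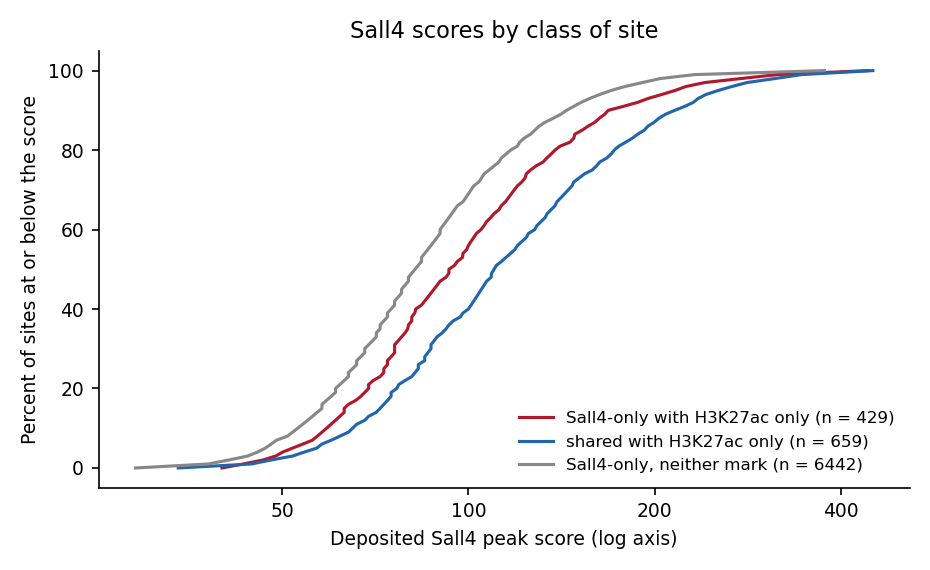
Percent of sites (vertical axis) at or below each deposited Sall4 score (horizontal axis, logarithmic) for acetylated Sall4-only sites (red, 429), acetylated shared sites (blue, 659) and unmarked Sall4-only sites (grey, 6442). The red curve lies between the others over most of its range, with medians of 93, 110 and 82 in that order.

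Although none of the sites overlapped a Cdx4 peak, many had one close by, and few gaps were between 500 bp and 1 kb. A Cdx4 peak lay within 1 kb of 136 acetylated Sall4-only sites (31.7%, 27.3 to 36.3%), against 517 unmarked Sall4-only sites (8.03%, 7.37 to 8.72%) and 9.35% of all Sall4-only peaks. Of those 136 sites, 88 had a gap of 100 bp or less, and only 3 had a gap over 500 bp. Over all 429 sites the median gap was 6975 bp (interval 4317 to 11580), against 40012.5 bp in the unmarked sites (36653 to 43536). The median gap was 59.5 bp in these 136 sites (quartiles 26.75 and 147.5 bp), which put the centres of the Sall4 and the Cdx4 peak a median of 159.5 bp apart. In the 517 unmarked sites with a Cdx4 peak within 1 kb the median gap was 155 bp (quartiles 42 and 373 bp). The other 293 acetylated Sall4-only sites lay a median of 24811 bp from Cdx4, and 114 of them had no Cdx4 peak within 50 kb or none on their sequence.

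The difference in Cdx4 proximity between acetylated and unmarked Sall4-only sites was seen in each score group. Going down the score groups, a Cdx4 peak lay within 1 kb of 38.2%, 28.6%, 23.4% and 37.3% of acetylated sites, against 13.8%, 8.63%, 6.38% and 5.49% of unmarked sites. Counted over domains, a Cdx4 peak lay within 1 kb of 31.6% of the 395 domains that held an acetylated Sall4-only site (27.1 to 36.5%) and of 34.6% of all 4599 H3K27ac domains. The share over sites was thus above that of unmarked Sall4-only sites, while the share over domains was near that of all domains and is not a result about these sites. Conversely, among the 131 unmarked Sall4-only sites that lay within 1 kb of an acetylated domain without touching it, 52.7% (43.8 to 61.5%) had a Cdx4 peak within 1 kb. Cdx4-only peaks with H3K27ac alone had a Sall4 peak within 1 kb in 21.9% of cases (143 of 653, 18.8 to 25.3%).

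**Figure D2:**
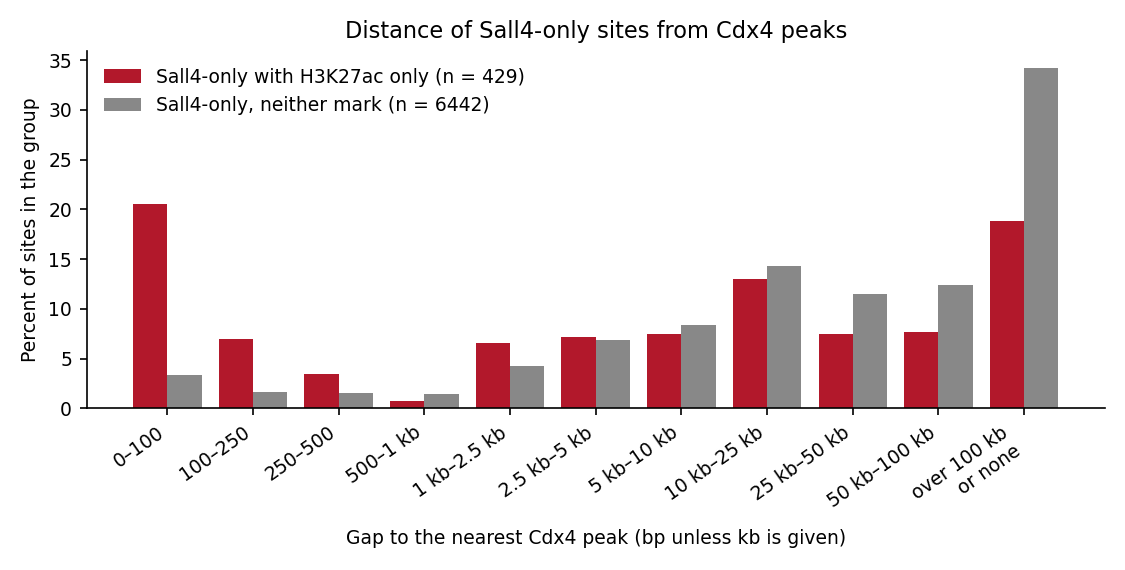
Percent of sites (vertical axis) in each class of gap to the nearest Cdx4 peak (horizontal axis, edge to edge, in bp or kb as marked; the last class includes sites with no Cdx4 peak on their sequence) for acetylated Sall4-only sites (red) and unmarked Sall4-only sites (grey). The class up to 100 bp holds 20.5% of the red sites and 3.37% of the grey sites, and the class over 100 kb holds 18.9% and 34.2%.

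The peak width of 100 bp decides how the nearest of these sites are classified. A gap of 10 bp or less to a Cdx4 peak was found at 14 acetylated Sall4-only sites, whose median Sall4 score was 110. The 16 acetylated shared sites whose largest overlap with a Cdx4 peak was 10 bp or less had a median score of 114. The site at chr19:26481844-26481943 (score 47) touched a Cdx4 peak of score 63 with a gap of 0 bp, and the site at chr7:7456708-7456807 (score 120) touched a Cdx4 peak of score 146. When peaks of both factors were widened to 200 bp before the overlaps were taken, 355 sites met the rule and 15.5% of them had a Cdx4 peak within 1 kb. Widening turns a gap under 100 bp into an overlap, so the rule itself removes those sites and lowers the share. Unmarked Sall4-only sites were not recomputed with widened peaks, so 15.5% has no matching value in that class.

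Where a Cdx4 peak was close, the acetylated domain of the Sall4 site nearly always held one. The sites overlap their domain by selection and most of these gaps were short, so this follows in part from the geometry. The domain of 126 sites also held a Cdx4 peak (29.4%, 25.1 to 33.9%), while 10 sites had one within 1 kb that was outside the domain, and 293 had none within 1 kb. With peaks widened to 200 bp the domain of 13.0% of the sites also held a Cdx4 peak, a share lowered by the same removal of close pairs. The 395 domains therefore split into 115 that held both a Sall4-only site and a Cdx4 peak and 280 that held a Sall4-only site without Cdx4. Among all H3K27ac domains 30.7% held a Cdx4 peak, close to the 29.1% of domains with an acetylated Sall4-only site. At 64 of the 136 sites with Cdx4 within 1 kb (47.1%, 38.4 to 55.8%) the nearest Cdx4 peak overlapped a further Sall4 peak, so that the acetylated Sall4-only site there was an additional Sall4 peak beside a shared site. At unmarked Sall4-only sites that share was 59.8% (309 of 517).

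Among domains with an acetylated Sall4-only site, those that also held a Cdx4 peak were wider and had higher domain scores than those without Cdx4. Domains of shared and of Cdx4-only sites are not set beside them here, so the difference need not be particular to these domains. Over all 395 domains with an acetylated Sall4-only site, the median width was 399 bp. The median width was 499 bp in the 115 domains with a Cdx4 peak (quartiles 399 and 699 bp) and 299 bp in the 280 domains without (quartiles 299 and 399 bp). It was also 299 bp in the 2019 domains that held no peak of either factor and did not overlap H3K4me3 (quartiles 200 and 499 bp). The median domain score was 201 (interval 179 to 239), 121 (104 to 137) and 105 (100 to 109) in that order. A wider domain has more room for a peak beside the site, and domain score and width were correlated across the 429 sites (Spearman's rho 0.787). Domains over 500 bp wide made up 48.7% of those with a Cdx4 peak, 14.3% of those without and 18.4% of those with no peak of either factor and no H3K4me3, against 19.7% of all domains.

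Among domains of similar width, the presence of Cdx4 was compared between those with and without an acetylated Sall4-only site. In domains over 500 bp wide, a Cdx4 peak was present in 58.3% of the 96 domains with an acetylated Sall4-only site (47.8 to 68.3%) and in 24.7% of the 810 domains without one (21.8 to 27.8%). In domains of 400 to 500 bp the shares were 55.8% of 43 domains (39.9 to 70.9%) and 38.1% of 425 domains (33.5 to 42.9%), and these intervals overlap. In narrower domains the order was the opposite. In those of 300 to 399 bp the shares were 22.0% of 100 domains (14.3 to 31.4%) and 42.3% of 930 domains (39.1 to 45.5%). In domains up to 299 bp wide they were 8.33% of 156 domains (4.51 to 13.8%) and 26.7% of 2039 domains (24.8 to 28.7%). The domains without such a site include those of shared sites, which hold Cdx4 by definition. Domains that overlap H3K4me3 (24.5% of all H3K27ac domains) are also among them. The rule on the peak keeps most of those out of the domains with a site, so the groups differ in H3K4me3 too. In the narrowest domains a Cdx4 peak that does not overlap the Sall4 site has little room. The rule itself therefore bears on these values. Most domains held a single site: 362 held 1, 32 held 2 and 1 held 3.

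**Figure D3:**
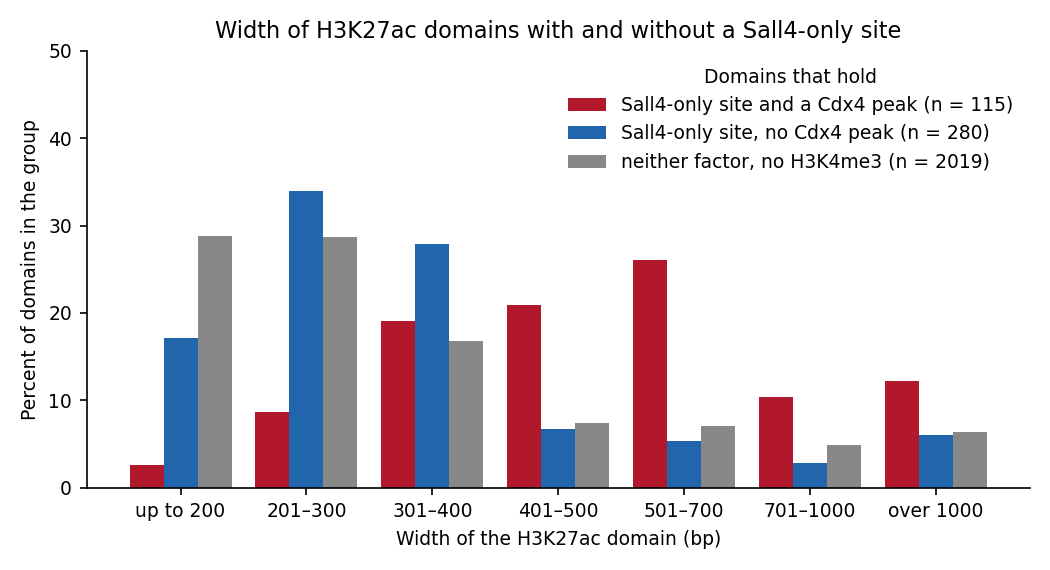
Percent of domains (vertical axis) in each class of H3K27ac domain width in bp (horizontal axis) for domains that hold an acetylated Sall4-only site and a Cdx4 peak (red, 115), the site without Cdx4 (blue, 280), or no peak of either factor and no H3K4me3 (grey, 2019). Widths of 501 to 700 bp hold 26.1% of the red, 5.36% of the blue and 7.08% of the grey domains.

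In domains up to 500 bp wide, sites that shared the domain with Cdx4 lay farther from its middle than sites without Cdx4 did. Domain starts fell on multiples of 100 bp in 99.8% of cases, so positions within domains are coarse. Of the 429 sites, 332 (77.4%) lay wholly inside their domain and 394 (91.8%) had their centre inside it. In domains up to 500 bp wide, the centres of the 60 sites with a Cdx4 peak in the domain lay a median of 103.25 bp (interval 72.5 to 141.5) from the domain middle. The centres of the 257 sites without lay a median of 58.5 bp from it (48.5 to 68). The domains with Cdx4 were also the wider ones within this range, which leaves more room from the middle. In domains over 300 and up to 500 bp the distance was 113.5 bp in 46 sites with Cdx4 (72.5 to 162.5) and 65.5 bp in 107 sites without (50.5 to 74.5). In domains up to 300 bp it was 90.0 bp in only 14 sites with Cdx4 (38 to 171.5) and 54.75 bp in 150 sites without (45 to 68), and these intervals overlap. Acetylated shared sites in domains up to 500 bp wide lay 56.5 bp from the middle (51.5 to 62, n = 535). Within the same 60 sites, the nearest Cdx4 peak was centred on the other side of the domain middle in 40 (66.7%, 53.3 to 78.3%). The point midway between the Sall4 and the Cdx4 centre lay a median of 25.25 bp below the domain middle in assembly coordinates (value -25.25, interval -52 to -5.5). The rule keeps the peaks of such a pair at least 100 bp apart from centre to centre. The rule itself therefore bears on their distance from the middle and on how often they lie on opposite sides of it.

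In domains up to 500 bp wide, most sites without Cdx4, like most shared sites, were centred at lower coordinates than the domain middle. The median displacement in both classes was smaller than the 100 bp grid on which nearly all domain starts fell. The signed distance had a median of -41.5 bp (interval -51.5 to -33) in the 257 sites without Cdx4 in domains up to 500 bp, and 75.5% of them were centred at lower coordinates than the domain middle. The median was -45.5 bp in the 535 acetylated shared sites, of which 78.9% were at lower coordinates. It was 12.0 bp in the 60 sites that shared a narrow domain with Cdx4, with an interval from -70.5 to 53.5 bp that included 0. Displacement toward lower coordinates was thus seen in sites without Cdx4 and in shared sites. The interval of the 60 sites also included -41.5 and -45.5 bp, so it does not show that those sites lacked the displacement. The cause of the displacement was not tested.

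**Figure D4:**
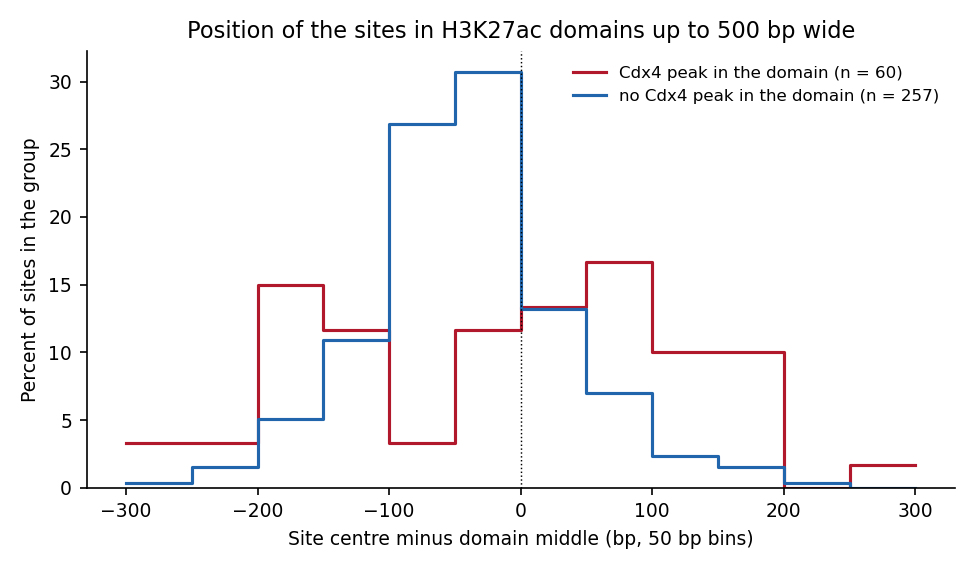
Percent of sites (vertical axis) by the distance of the site centre from the middle of its H3K27ac domain in bins of 50 bp (horizontal axis, negative toward lower coordinates), for domains up to 500 bp wide. Sites with Cdx4 in the domain (red, 60) spread to both sides, with 3.33% between -100 and -50 bp and 11.7% between -50 and 0 bp, bins that hold 26.8% and 30.7% of the sites without Cdx4 (blue, 257).

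Named domains give single cases. They were chosen for a high domain score or for holding 3 sites, and all were wider than 500 bp. The positions measured above in domains up to 500 bp do not cover them, and they need not typify the other domains. The acetylated domain with the highest score that held such a site was 3699 bp wide, on chromosome 18 at 16225100 to 16228798, with a domain score of 3086 and rank 4 of 4599. Its single Sall4 peak at 16228080 to 16228179 had a score of 77 and lay 1180.5 bp from the middle, toward the end of the domain, and the nearest Cdx4 peak was 184615 bp away. On chromosome 10 a domain of 3799 bp at 27945500 to 27949298 (score 2797) held 2 acetylated Sall4-only sites, at 27947725 (score 76) and 27948251 (score 108). A Cdx4 peak at 27948004 to 27948103 (score 96) lay between them, 179 and 147 bp from their edges. On chromosome 22 a domain of 3299 bp at 18696900 to 18700198 (score 2638) held 3 Sall4 and 3 Cdx4 peaks. A pair of its Sall4 peaks, at 18698251 and 18699431, overlapped Cdx4, and the site at 18698722 (score 96) stood 48 bp from the Cdx4 peak at 18698870.

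On chromosome 21 the domain at 39189300 to 39193398 (4099 bp, score 2624) began 63 bp inside the site at 39189237 to 39189336, which overlapped it by 37 bp and had a score of 160. A Sall4 peak with a score of 460, rank 6 of the list, lay 196 bp before that site and outside the domain, where it overlapped a Cdx4 peak of score 70. A further acetylated Sall4-only site with a score of 51 lay inside this domain at 39191982, just after a Cdx4 peak of score 148 at 39191871 to 39191970. The 1 domain with 3 acetylated Sall4-only sites was on chromosome 19 at 43131900 to 43133798 (1899 bp, score 1213). Its Sall4 peaks at 43132621, 43132988 and 43133293 had scores of 212, 114 and 137. They alternated with Cdx4 peaks at 43132338, 43132793 and 43133112, whose scores were 83, 119 and 106, at gaps of 24 to 81 bp from the nearest one.

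**Figure D5:**
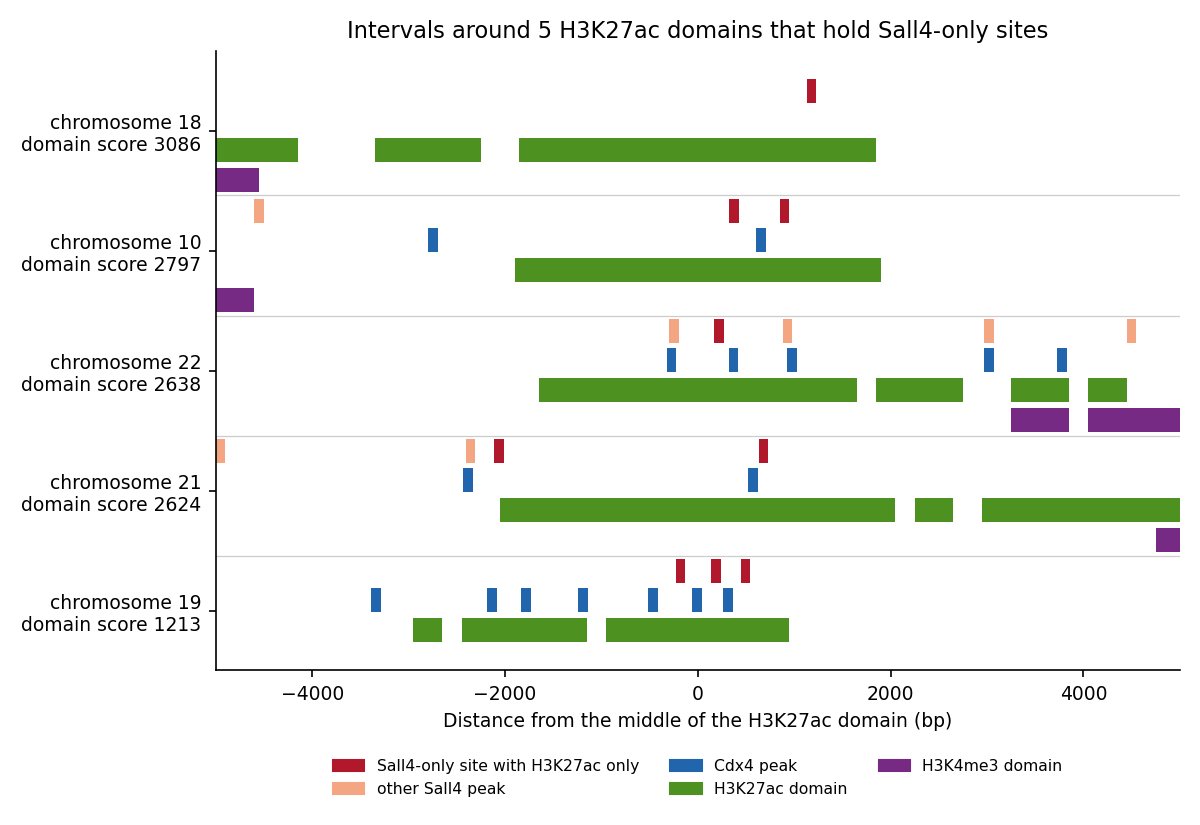
Intervals in and close to 5 named H3K27ac domains (rows), to scale, by distance from the domain middle in bp (horizontal axis, to 5000 bp on each side). Acetylated Sall4-only sites are in red, other Sall4 peaks in orange, Cdx4 peaks in blue, H3K27ac domains in green and H3K4me3 domains in purple. Intervals were taken by distance from the domain edges, so the outer axis can be empty where intervals exist. The H3K4me3 domain 3922 bp from the chromosome 19 site at 43132621 is not drawn. The domain on chromosome 18 has 1 site and no Cdx4 peak nearby, while on chromosome 19 the 3 sites alternate with 3 Cdx4 peaks.

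H3K4me3 lay close to few of the sites, but to more of them than in the classes set beside them. An H3K4me3 domain lay within 1 kb of 35 acetylated Sall4-only sites (8.16%, 5.75 to 11.2%), 17 acetylated shared sites (2.58%, 1.51 to 4.10%) and 310 unmarked Sall4-only sites (4.81%, 4.30 to 5.36%), against 5.00% of all Sall4 peaks that did not overlap the mark. The share in acetylated Sall4-only sites was 16.1% where domains over 500 bp wide alone were used. It was 2.96% once sites with H3K4me3 within 500 bp were left out, which lowers it by construction. Cdx4-only peaks with H3K27ac alone stood at 3.83% (25 of 653, 2.49 to 5.60%). Since the rule concerns the Sall4 peak and not the whole acetylated domain, the domain itself could touch H3K4me3. This was so for 17 of the 395 domains with an acetylated Sall4-only site (4.30%, 2.53 to 6.80%) and for 2 of the 626 domains with an acetylated shared site (0.319%, 0.0387 to 1.15%), against 24.5% of all domains, from which the rule on the peak keeps both shares down. Of the 35 sites, 8 had a Cdx4 peak in their domain, 3 had one within 1 kb outside it and 24 had none within 1 kb. Within 5 kb the share was 21.4% in acetylated Sall4-only sites (17.7 to 25.6%) and 15.8% in unmarked Sall4-only sites (14.9 to 16.7%). Over all sites of a class, the median distance to H3K4me3 was 25234 bp for acetylated Sall4-only sites and 25275 bp for acetylated shared sites. It was 32146 bp for unmarked Sall4-only sites.

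The sites were more closely spaced to other Sall4 peaks than unmarked Sall4-only sites were. Another Sall4 peak lay within 5 kb of 61.1% of acetylated Sall4-only sites (56.3 to 65.7%), 55.7% of acetylated shared sites (51.8 to 59.5%) and 43.0% of unmarked Sall4-only sites (41.8 to 44.2%), against 47.2% of all Sall4 peaks. Going down the score groups, the share was 66.7%, 62.5%, 59.5% and 53.0% in acetylated Sall4-only sites, against 56.6%, 46.7%, 41.0% and 33.5% in unmarked Sall4-only sites. Within 1 kb, 161 acetylated Sall4-only sites (37.5%) had another Sall4 peak, against 23.4% of all Sall4 peaks. Of these 161 sites, the nearest such peak was a further acetylated Sall4-only site in 69 cases and an acetylated shared site in 60. A peak this close can lie in the same acetylated domain, so the acetylation of such neighbours follows in part from the selection. No such count was taken for the other classes, so these counts are not a result about the sites. In both classes, another Sall4 peak was more often close where Cdx4 was close. Shared sites fix a part of this difference. A nearby Cdx4 peak that overlaps a further Sall4 peak, as described above for both classes, puts that Sall4 peak close as well. The shares with Cdx4 are therefore no separate result on spacing. With a Cdx4 peak within 1 kb, another Sall4 peak lay within 1 kb of 69.1% of 136 acetylated Sall4-only sites and of 73.3% of 517 unmarked Sall4-only sites (69.3 to 77.1%). With none, the shares were 22.9% of 293 acetylated sites (18.2 to 28.1%) and 14.8% of 5925 unmarked sites (13.9 to 15.7%).

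A part of the sites stood alone. No Cdx4 peak, no other Sall4 peak and no H3K4me3 domain lay within 5 kb of 110 acetylated Sall4-only sites (25.6%, 21.6 to 30.0%), against 3028 unmarked Sall4-only sites (47.0%, 45.8 to 48.2%). The site farthest from any Cdx4 peak was chr3:56882281-56882380, with a score of 142 in a domain of 299 bp and a gap of 1475353 bp. It was singled out after its distance was seen. Another H3K27ac domain lay within 5 kb of 29.9% of the domains with an acetylated Sall4-only site (25.4 to 34.7%) and of 35.3% of all domains.

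The sites were spread over all 25 chromosomes. Of the 429 sites, 406 (94.6%) lay on assembled chromosomes and 23 on unplaced scaffolds. Chromosome 7 held the most, 40 of its 532 Sall4-only peaks (7.52%, 5.43 to 10.1%), and chromosome 16 the fewest, 7 of 259 (2.70%, 1.09 to 5.49%). The share of Sall4-only peaks was highest on chromosome 3, at 8.11% (24 of 296, 5.26 to 11.8%). This order depends on the denominator. Per 100 H3K27ac domains, chromosome 17 was highest with 17.0 sites, against 16.3 on chromosome 7 and 12.4 on chromosome 3. The intervals of chromosomes 3 and 7 overlapped that of chromosome 16 only narrowly, while those of most chromosomes overlapped widely. Tiles of 100 kb held 1 site in 279 cases, 2 in 59, 3 in 8 and 4 in 2. The 5 fullest tiles, taken by the number of sites and then of H3K27ac domains, began on chromosome 23 at 37000001, chromosome 15 at 20600001, chromosome 25 at 33900001, chromosome 8 at 53200001 and chromosome 19 at 43100001.

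The tiles with 4 sites differed in how near Cdx4 was. On chromosome 23, all 4 sites lay within 203 bp of a Cdx4 peak. Their scores were 135, 221, 215 and 240, and 2 of them lay in a single domain 6599 bp wide that held 7 Cdx4 peaks. This tile held 20 Sall4 and 18 Cdx4 peaks in all. On chromosome 15, the tile held 12 Sall4 and 5 Cdx4 peaks. The site at 20641432 (score 51) had a Cdx4 peak in its domain, whereas the sites at 20683230, 20689873 and 20691869, with scores of 70, 83 and 79, were 41262, 47905 and 49901 bp from the nearest Cdx4 peak.

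At the edge of acetylated domains, the rule divided sites that lay a few base pairs apart. An overlap of 10 bp or less joined 8 acetylated Sall4-only sites to their domain, with a median Sall4 score of 86.5 (quartiles 56.75 and 104.5). Just outside, 10 unmarked Sall4-only sites lay 10 bp or less from a domain, with a median score of 114 (quartiles 76.5 and 129.5). A Cdx4 peak lay within 1 kb of 4 of the 8 and of 5 of the 10. The smallest overlap, 3 bp, was at chr3:43035896-43035995 (score 49), followed by 4 bp at chr19:39224104-39224203 (score 50). Just outside, the Sall4 peak at chr9:2289899-2289998 (score 84) lay 1 bp from a domain, and that at chr4:8553496-8553595 (score 74) lay 4 bp from one.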

How the data were processed

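The input was 4 deposited interval lists, each from 1 library. The names of the deposited factor peaks point to the GPS caller, while domain names give none. The submitters' processing notes name CASAVA 1.4 and Bowtie 0.12.7. The 3 input libraries were not analysed here. For thresholds, depth and the use of input, nothing is given in the sources used here. The score deposited by the authors has no stated definition and ranked intervals within a list only. It ran from 29 to 558 for Sall4 and from 0 to 4411 for H3K27ac. Scaffold names carry the prefix of assembly Zv8. Positions were taken as 1-based and inclusive of start and end, so every peak spans 100 bp. Gaps are the bases between interval edges. Overlap and gap functions were tested on simulated intervals. Shares have exact (Clopper-Pearson) 95% intervals and medians rank-based binomial 95% intervals, computed with Python 3.11.15, numpy 2.4.6, pandas 2.3.3 and scipy 1.17.1. Figures used matplotlib 3.10.9. The sites, the classes and the comparisons were chosen with earlier results of these data known. Positions were named by rule: the 10 sites with the highest Sall4 score, the 5 in the highest-scoring domains, domains with 3 or more sites, the 5 fullest tiles of 100 kb, and examples within 10 bp of a domain edge. Other named positions were chosen after their values were seen. Alternatives changed the overlap, the peak width, the part of each list, the distances and the coordinate reading.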

Additional observations from a re-analysis of the deposited data

How the results depend on the processing

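Of 77 values recomputed for 7 results under 11 alternative settings, 55 stayed within the 95% interval of the reported value (for the number of sites, within 1.5 times). The other 22 follow. With domains over 500 bp wide alone there were 112 sites, with Cdx4 within 1 kb of 60.7% and in the domain of 58.9%, H3K4me3 within 1 kb of 16.1%, another Sall4 peak within 5 kb of 77.7% and a median domain width of 799 bp. With the better-scoring part of the domains there were 255 sites, and these values were 42.4% for Cdx4 within 1 kb, 40.0% for Cdx4 in the domain, 69.8% for another Sall4 peak and 499 bp. With the better-scoring part of the Sall4 peaks there were 234 sites, with a median score of 123 and another Sall4 peak within 5 kb of 48.3%, both set in part by the smaller list. With peaks widened to 200 bp, 15.5% of the sites had Cdx4 within 1 kb and 13.0% in the domain. Both were lowered because widening removes sites with a close Cdx4 peak. Without sites that had Cdx4 within 500 bp, 1.01% had it within 1 kb and 0.676% in the domain, both largely by construction. In that setting 51.7% had another Sall4 peak within 5 kb and the median domain width was 299 bp. Without sites that had H3K4me3 within 500 bp, 2.96% had it within 1 kb, again largely by construction. Counting starts from 0 gave a median width of 398 bp by construction. Leaving out domains with a score of 0, a setting chosen after seeing the data, kept 419 sites. No paired analysis was possible because each target has 1 library. Depth is unknown, so the lack of a called Cdx4 peak or H3K4me3 domain at a site does not show that either was absent.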
